A study of Mus musculus with 9 samples.

Results

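Serum withdrawal in a wild-type mouse prostate epithelial cell line was described here from 5 of the 9 arrays of the series. The members were chosen by their titles: the 2 arrays of wild-type cells without serum were set against the 3 arrays of wild-type cells in serum. The 9686 probe sets with a measurable signal were tested, of which 8643 carried 1 gene symbol and stood for 7063 genes. The comparison was repeated without the array wild-type serum 1.

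The study profiled total RNA from a pair of mouse prostate epithelial lines on single-channel arrays. One line was the wild-type control, and the other lacked the retinoblastoma gene Rb1 and is called Rb-null here. The wild-type serum group (3 arrays) and the Rb-null serum group (2 arrays) were grown in RPMI-1640 medium with 5% fetal bovine serum. The wild-type serum-free group (2 arrays) and the Rb-null serum-free group (2 arrays) were held in the same medium lacking serum for 48 hours. Each genotype was represented by 1 line. Nothing in the labels tells whether the arrays of 1 group were separate cultures, so each p-value reflects array-to-array spread alone, which may be technical. The small number of arrays limits precision.

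Serum supplies growth factors, lipids and hormones to cultured cells. Cells that lose it usually stop dividing within a division cycle and enter quiescence, a reversible arrest in which the retinoblastoma protein and its relatives hold E2F transcription factors in check. Genes for DNA replication are then switched off with E2F, genes for mitosis are kept silent by the DREAM complex, which binds cell cycle genes homology regions, and loss of lipoproteins and insulin-like signals acts on lipid synthesis, FOXO factors and the lysosome.

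Intensities below are the deposited values after quantile normalization between arrays, a linear scale without units. A floor of 197, percentile 25 of all normalized values, stood in for the limit of detection, and lower values were raised to it, so a difference with arrays of 1 group below the floor is a lower bound on the size of the change. A difference is the mean log2 value without serum minus that in serum, and "rose" and "fell" are used only where limma's adjusted p was under 0.05. Wild-type serum 1 stood apart: its rank correlations across probe sets with the other serum arrays were 0.974 and 0.969, against 0.995 between those and 0.994 between the serum-free arrays. Its correlations with the serum-free arrays were also the lowest, 0.937 and 0.936. Rb1, the gene missing from the other line, read 714 on wild-type serum 1 and 398 and 368 on the other serum arrays, against 386 and 370 without serum (log2 difference -0.32, SE 0.23, adjusted p = 0.414). It lay below the floor on all 4 Rb-null arrays. Epithelial markers were high throughout: across the 5 arrays the keratin Krt8 read 8712 to 9284 and Krt18 7615 to 8616, Cdh1, the epithelial cadherin, read 1402 to 1919 and Epcam 1095 to 1772. The basal markers Krt5 and Trp63 read 597 to 731 and 326 to 390. The basal keratin Krt14 read 210 to 232, just above the floor. Probasin (Pbsn), a secretory product of the mature luminal cell, was below the floor on all 5 arrays. So were vimentin (Vim), the smooth muscle genes Acta2 and Myh11 and the leukocyte gene Ptprc. Most markers listed for these cell types were above it on all 5 arrays: 16 of 19 luminal, 14 of 20 mesenchymal, 6 of 9 smooth muscle and 12 of 17 leukocyte markers. The smooth muscle gene Des read 634 to 850 and the endothelial gene Pecam1 533 to 710.

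The largest changes after withdrawal were losses of genes for DNA synthesis and cell division, and the gains were fewer and smaller. Of the tested probe sets, 1536 passed the threshold (15.9%), with 640 higher (6.61%) and 896 lower (9.25%) without serum. At least 2-fold changes among them were 22 higher (0.227%) and 123 lower (1.27%). Per gene, using the probe set with the highest mean, 510 of 7063 genes rose (7.22%) and 658 fell (9.32%), and the median difference over all genes was 0.05. The arrays of the groups did not overlap for any of the 1536, a property that 44.2% of all tested probe sets shared. Higher calls made up 41.7% of the total, 36.2% when arrays were scaled to a common median and 25.7% on the values as deposited.

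Without wild-type serum 1 the number of calls grew to 1963 of 9654 (20.3%), with 939 higher (9.73%) and 1024 lower (10.6%). Per gene, 10.5% rose and 10.7% fell. Of the 1536 calls, 1513 were made again in the same direction (98.5%), 23 were lost and 450 others were gained. All 145 probe sets changed at least 2-fold kept their call and direction. The total was lower without wild-type serum-free 1, at 729, and without wild-type serum-free 2, at 667.

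**Figure D1:**
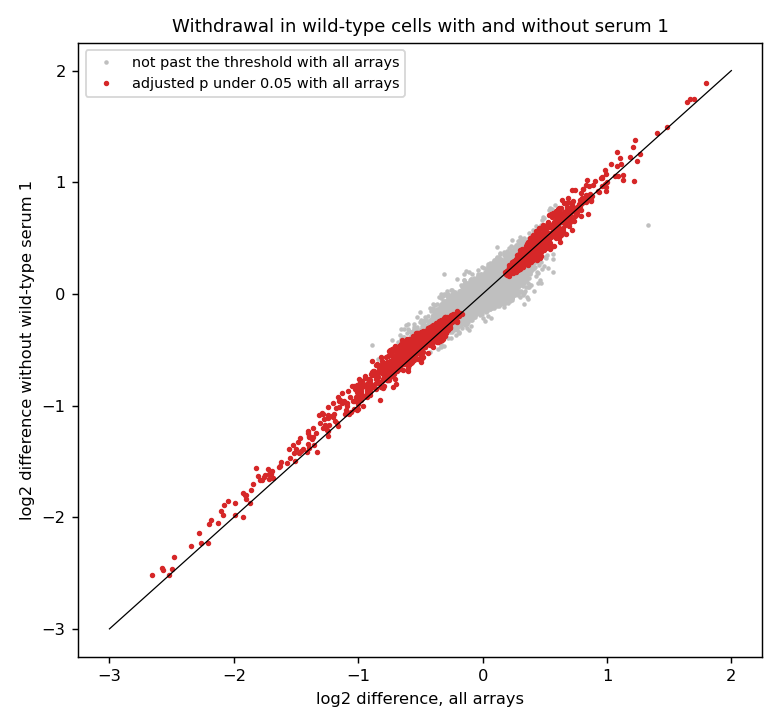
Each point is a tested probe set. The x axis gives the log2 difference (serum-free minus serum) with all arrays and the y axis the same without wild-type serum 1. Red points passed the threshold with all arrays, and the line marks equal values. Most red points lie close to the line, and 98.5% of them were called again.

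The promoters of the genes that moved together are shown for 3 genes that fell, Ccnb2, Cdk1 and Top2a, for Idi1 of cholesterol synthesis, which fell, and for Ctsd of the lysosome, which rose. The sequences are RefSeq's windows for the mouse build GRCm38.p6, 250 bases before the annotated start, given 5′ to 3′ on the strand of the gene. Capitals mark matches on either strand to CCAAT (the CCAAT box), TTTGAA (the cell cycle genes homology region), TTTCGCGC (an E2F element) and CACGTG (an E-box).
Ccnb2, chr9:70421555-70421804, minus strand: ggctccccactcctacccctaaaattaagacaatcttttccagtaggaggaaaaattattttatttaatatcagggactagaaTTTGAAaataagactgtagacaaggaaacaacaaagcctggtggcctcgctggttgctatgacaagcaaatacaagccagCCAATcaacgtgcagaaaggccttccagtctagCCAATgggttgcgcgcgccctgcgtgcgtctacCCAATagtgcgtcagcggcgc
Cdk1, chr10:69352913-69353162, minus strand: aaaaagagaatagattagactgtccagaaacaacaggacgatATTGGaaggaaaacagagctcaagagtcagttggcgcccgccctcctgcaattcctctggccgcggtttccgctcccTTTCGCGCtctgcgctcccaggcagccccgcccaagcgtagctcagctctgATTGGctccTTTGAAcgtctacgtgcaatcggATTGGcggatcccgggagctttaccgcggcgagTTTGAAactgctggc
Top2a, chr11:99024190-99024439, minus strand: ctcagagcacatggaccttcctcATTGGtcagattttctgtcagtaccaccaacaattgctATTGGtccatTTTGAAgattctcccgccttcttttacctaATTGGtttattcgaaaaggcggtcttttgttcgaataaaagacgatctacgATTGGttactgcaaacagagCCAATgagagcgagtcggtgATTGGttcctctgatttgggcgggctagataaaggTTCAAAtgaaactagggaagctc
Idi1, chr13:8885356-8885605, plus strand: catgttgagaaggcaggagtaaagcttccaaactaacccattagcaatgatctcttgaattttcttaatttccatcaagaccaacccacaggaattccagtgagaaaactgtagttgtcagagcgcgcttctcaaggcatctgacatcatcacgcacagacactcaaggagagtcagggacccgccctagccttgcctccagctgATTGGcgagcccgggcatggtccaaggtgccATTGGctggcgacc
Ctsd, chr7:142387828-142388077, minus strand: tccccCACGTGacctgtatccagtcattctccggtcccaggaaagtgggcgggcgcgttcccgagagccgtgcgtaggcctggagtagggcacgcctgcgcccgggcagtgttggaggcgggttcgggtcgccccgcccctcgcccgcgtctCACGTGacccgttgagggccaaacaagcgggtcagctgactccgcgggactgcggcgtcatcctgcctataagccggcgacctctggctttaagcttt

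Ccnb2 holds CCAAT boxes 87, 54 and 21 bases before its start. Cdk1 holds an E2F element 131 bases before its start, with cell cycle genes homology letters 71 and 15 bases before the start. CCAAT occurred in 24 of the 34 mitosis genes with a window (70.6%), in 27 of 45 replication genes (60.0%) and in 16 of 17 cholesterol genes (94.1%), against 40.3% of the genes tested and 37.5% of the 27025 genes of the promoter table. TTTGAA, chosen after the values were seen, occurred in 13 of the 34 mitosis genes (38.2%) and in 9 of 45 replication genes (20.0%). It occurred in 13.2% of the genes tested and 18.3% of the promoter table, so the replication share was near the latter. TTTCGCGC occurred in 5 of the 45 replication genes (11.1%) against 0.618% of the genes tested. The alternative E2F letters TTTGGCGC occurred in 2 of them (4.44%) against 0.919%. CACGTG occurred in 12 of 35 lysosome genes (34.3%) against 10.4% of the genes tested. Its share was also above that in the immediate-early (22.7%), MYC and ribosome biogenesis (17.9%), cholesterol (17.6%) and replication genes (13.3%), and it was 8.82% in the mitosis genes. The sterol regulatory letters CACCCCAC occurred in 1 of the 17 cholesterol genes (5.88%) against 3.62%. These counts describe letters in a window and are not binding sites, and genes with more than 1 start were counted if any window matched.

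Of the 47 gene lists, mitosis had the greatest share of changed members. Of 42 members tested, 36 fell and none rose, against 9.32% and 7.22% of all genes, and the median difference was -1.49. Mki67, the Ki-67 antigen of cycling cells, read 1413, 1155 and 1086 in serum and 210 and 187 without it. Every serum array lay far above both serum-free arrays, a fall of at least 5.96-fold, since the second serum-free array was below the floor (log2 -2.58, SE 0.12, adjusted p = 2.71e-06). Birc5, the survivin subunit of the chromosomal passenger complex, fell from 2369, 2273 and 2175 to 389 and 414, 5.66-fold (log2 -2.50, SE 0.08, adjusted p = 8.37e-07). The other subunits also fell, with Aurkb at -1.90, Cdca8 at -1.46 and Incenp at -1.17. In bulk RNA, fewer cells in a cycle phase and less RNA per such cell cannot be told apart.

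The mitotic kinases and cyclins fell in the same range. Ccnb2, a B-type cyclin that drives entry into mitosis, read 3011, 2175 and 2151 in serum and 579 and 544 without it. Serum 1 was the highest of the 5 arrays, and the groups lay far apart (log2 -2.11, SE 0.15, adjusted p = 2.07e-05; -1.94 without serum 1). Its partner Cdk1 (-1.58) and Aurka, a spindle pole kinase (-2.09), also fell. So did the spindle checkpoint genes Bub1 and Mad2l1 (-2.19 and -1.63) and the anaphase activator Cdc20 (-1.91). The cytokinesis genes Ect2 and Anln fell (-2.48 and -2.20), as did the condensin subunits Smc2 and Smc4 (-1.75 and -1.68). The motor protein Kif11 read 834, 665 and 663 in serum and was below the floor without it, a fall of at least 3.64-fold. Cip2a, an inhibitor of the phosphatase PP2A, read 998, 597 and 563 and was below the floor without serum, at least 3.53-fold lower, and its difference was -1.82 with all arrays and -1.56 without serum 1.

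The 6 mitosis members that did not pass were Foxm1 (-0.34), Ube2c (-0.27), Racgap1 (-0.06), Plk1 (0.05), Cdc25c (0.08) and Pttg1 (0.16). For a pair of them other probe sets disagreed. Plk1, a kinase of mitotic entry, had the lowest difference of all named probe sets at -2.66 (SE 0.13, adjusted p = 3.59e-06). It read 1933, 1481 and 1468 in serum and 267 and 245 without it. The other 2 Plk1 probe sets read 2662 to 4325 in serum and 2230 to 4051 without it, with differences of 0.05 and -0.22. All 3 carry a suffix that marks probe sets able to detect related transcripts. Cdc25c, a phosphatase that activates Cdk1, likewise fell by at least 3.31-fold on a second probe set (log2 -1.72, adjusted p = 3.65e-05). That probe set also carries such a suffix, while the Cdc25c probe set at 0.08 does not.

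**Figure D2:**
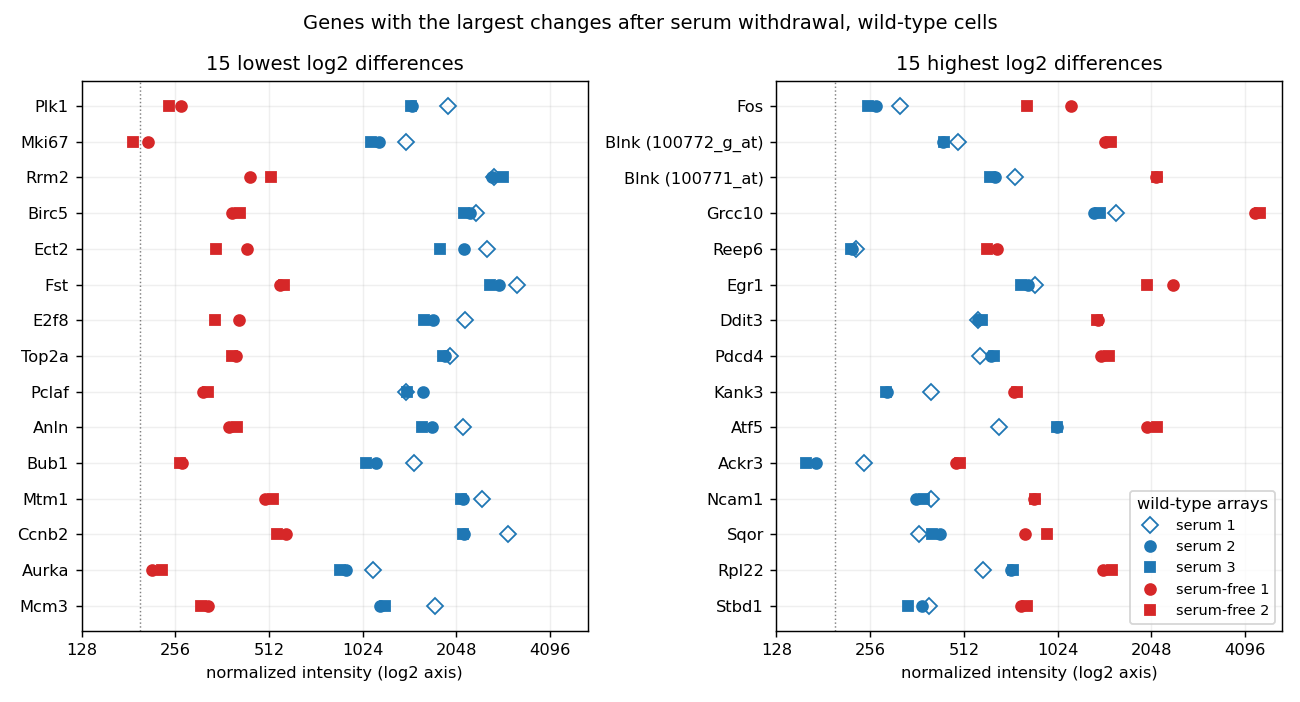
Normalized intensity on a log2 axis for the 15 lowest (left) and 15 highest (right) named differences, 1 symbol per wild-type array. Blue marks serum and red marks serum-free arrays, open diamonds mark serum 1, and the dotted line is the floor of 197. Genes were shown only if red and blue did not overlap, so the lack of overlap is a condition of choice. Mki67 lies at 1086 to 1413 in serum and at 187 to 210 without it.

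Genes of DNA replication fell next most often. Of 50 members, 34 fell (68%, against 9.32% of all genes) and none rose, with a median of -0.70 (36 fell without serum 1, median -0.55). Rrm2, the regulated subunit of the ribonucleotide reductase that makes deoxynucleotides, read 2717, 2659 and 2887 in serum and 445 and 519 without it. The serum arrays agree closely here, serum 1 included, and the fall was 5.73-fold (log2 -2.52, SE 0.10, adjusted p = 1.52e-06). Its partner Rrm1 also fell (-1.41), while a second Rrm1 probe set at -0.02 did not pass. Top2a, the topoisomerase that untangles replicated DNA, fell from 1956, 1880 and 1855 to 400 and 390, a log2 difference of -2.26 (SE 0.08, adjusted p = 9.19e-07). Cdc6, which loads the replicative helicase, fell (-1.90, with 1 serum-free array below the floor), and so did the helicase subunits Mcm2, Mcm4 and Mcm7 (-1.09, -1.03 and -0.97).

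Mcm3, a further helicase subunit, fell on both of its probe sets (-2.08 and -1.51). On the first it read 1743, 1162 and 1210 in serum and 327 and 310 without it, and serum 1 alone lay well above the other serum arrays. Polymerase alpha and primase genes fell (Pola1 -1.28, Prim1 -1.40, Prim2 -0.54), as did the sliding clamp Pcna and its loaders Rfc4 and Rfc5 (-0.96 and -0.98). Fen1, which processes Okazaki fragments, fell (-1.62). The maintenance methyltransferase Dnmt1 and its cofactor Uhrf1 fell less (-0.86 and -0.76). Among the 16 members that did not pass were Mcm5 (0.07), Cdc45 (0.21), Gins2 (0.02) and Dut (0.00). Outside the list, Pclaf, a PCNA-binding factor, fell (-2.21).

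Regulators of the G1/S step changed less evenly. Of 18 members, 8 fell (44.4%) and 1 rose (5.56%), with a median of -0.30. Over all genes 9.32% fell and 7.22% rose, so the rises were below that share. Ccna2, the cyclin of S phase, read 2362, 2371 and 2392 in serum and 1159 and 1092 without it. The 3 serum values were nearly identical and the fall was 2.11-fold (log2 -1.08, SE 0.07, adjusted p = 1.86e-05). The CDK-binding proteins Cks2 and Cks1b fell, at -1.84 and 2.00-fold. The repressor E2f8 fell on both probe sets (-2.28 and -1.16), and so did Rbl1, which encodes the retinoblastoma relative p107 (-0.98). The upstream components E2f1 (0.11), Ccnd1 (-0.05), Ccne1 (-0.04) and Cdk4 (-0.01) did not pass. The single rise was Ccnd2 at 0.39, and it was lost without any one of 8 of the arrays, serum 1 among them.

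CDK inhibitors gave 2 rises (28.6%) and 1 fall (14.3%) among 7, against 7.22% and 9.32% of all genes. With 7 members these shares rest on few genes, and the median was 0.16, or -0.01 without serum 1. Cdkn2b, the p15 inhibitor of Cdk4 and Cdk6, rose from 362, 344 and 337 to 566 and 588 (log2 0.73, SE 0.09, adjusted p = 0.000553). Cdkn1a, the p21 inhibitor, read 3490, 3847 and 4027 in serum and 5135 and 5486 without it, a rise of 0.49 (adjusted p = 0.00311) that was lost without wild-type serum-free 2 (adjusted p = 0.0525). Both genes were higher on each serum-free array than on any serum array. Cdkn3, a phosphatase of Cdk1 and Cdk2 counted with the inhibitors, fell (-0.90). Cdkn1b, the p27 inhibitor often tied to serum arrest, did not pass at 0.16, nor did Cdkn2a (-0.04), Cdkn2c (0.19) and Cdkn2d (0.08).

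**Figure D3:**
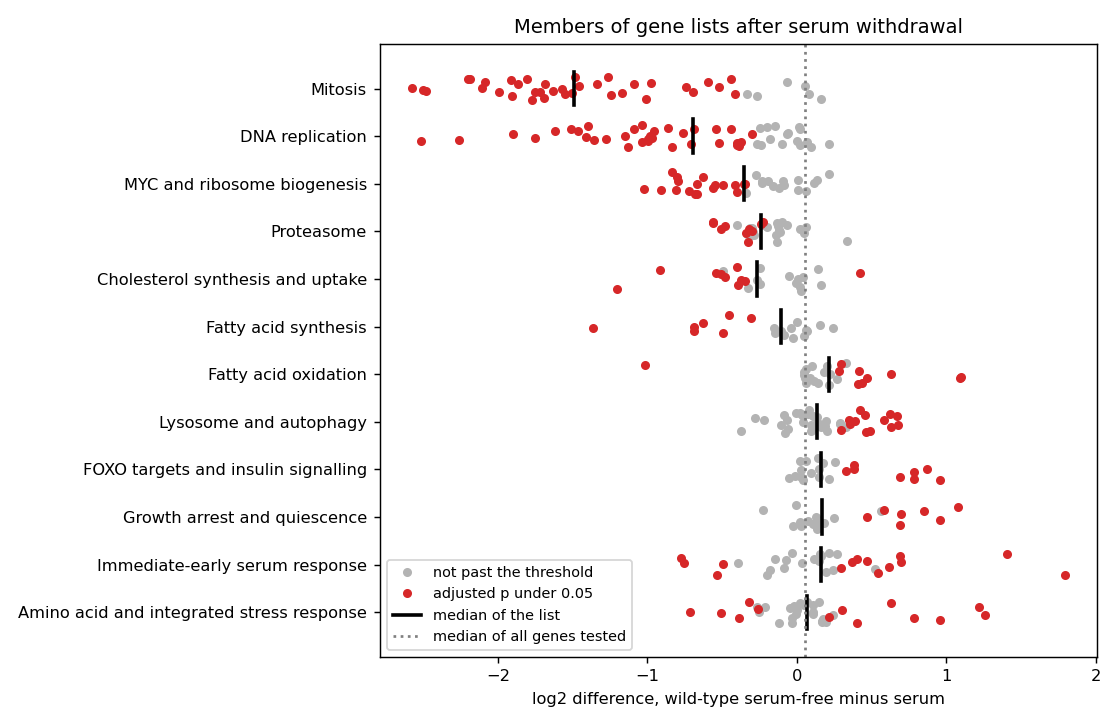
Each point is a gene of a list, placed by its log2 difference (serum-free minus serum); red points passed the threshold, black bars are list medians and the dotted line is the median of all genes, 0.05. Mitosis and DNA replication have medians of -1.49 and -0.70, and the lists with rises have medians no higher than 0.21.

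Genes of ribosome biogenesis and MYC targets fell in part. Of 33 members, 18 fell (54.5%, against 9.32% of all genes) and none rose, with a median of -0.35 (20 fell without serum 1). Nolc1, a nucleolar phosphoprotein, read 1755, 1673 and 1603 in serum and 940 and 941 without it (log2 -0.83, SE 0.09, adjusted p = 0.000224). The box C/D proteins Nop58 and Nop56 fell (-1.03 and -0.63), as did the nucleolar GTPase Gnl3 (-0.80) and Odc1 and Srm of polyamine synthesis (-0.80 and -0.68). Myc itself fell (-0.78, and -0.56 without serum 1). The RNA polymerase I genes Polr1a (-0.23), Polr1b (0.01), Polr1c (0.13) and Polr1d (0.11) did not pass. Of 28 cytosolic ribosomal protein genes, 4 rose (14.3%, against 7.22% of all genes) and none fell. The 4 were Rps10, Rps19, Rpl10a and Rpl22. Of these Rpl22 stood at 1.13, but its other probe set was at 0.04 and did not pass. Without wild-type serum-free 1 or 2 the 4 became 2 and 1.

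Some genes of lipid synthesis fell and some of fatty acid oxidation rose. Of 23 genes of cholesterol synthesis and uptake, 9 fell (39.1%) and 1 rose (4.35%), with a median of -0.27. Over all genes 9.32% fell and 7.22% rose, so the rises were below that share. Idi1, the isopentenyl diphosphate isomerase, read 2002, 1709 and 1608 in serum and 755 and 781 without it, a 2.30-fold fall (log2 -1.20, SE 0.12, adjusted p = 0.000164). Cyp51, Sqle and Lss, later enzymes of the pathway, fell (-0.92, -0.51 and -0.37). The member that rose was Npc2 (0.42), a carrier of cholesterol out of the lysosome. Hmgcs1, at the pathway's start, did not pass at -0.50. The count of 9 fell to 3 when wild-type serum-free 1 was left out, to 2 when it was wild-type serum-free 2, to 5 for wild-type serum 2, and to 4 for Rb-null serum 1 or Rb-null serum 2.

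Of 19 genes of fatty acid synthesis, 7 fell and none rose (median -0.11), and 4 fell without wild-type serum-free 2. Scd1, the stearoyl-CoA desaturase, read 1613, 1390 and 1386 in serum and 602 and 535 without it (log2 -1.36, SE 0.12, adjusted p = 7.09e-05), while another Scd1 probe set at -0.27 did not pass. Fasn, the fatty acid synthase, fell from 3847, 3831 and 3753 to 2446 and 2290 (log2 -0.69, adjusted p = 6.20e-05). Both groups of Fasn values were tight and separate. The elongase Elovl6 and the desaturase Fads1 fell (-0.63 and -0.49), while Acly (-0.15) and the regulator Srebf1 (-0.05) did not pass. The 7 falls made up 36.8% of the 19 genes, against 9.32% of all genes.

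Of 25 genes of fatty acid oxidation, 9 rose (36%) and 1 fell (4%), with a median of 0.21. Over all genes 7.22% rose and 9.32% fell, so the falls were below that share. Cpt1a, which admits fatty acids to mitochondria, read 548, 568 and 587 in serum and 1187 and 1228 without it, a 2.13-fold rise (log2 1.09, SE 0.08, adjusted p = 2.13e-05). Acaa2, the mitochondrial thiolase, rose from 1195, 945 and 927 to 2229 and 2127 (log2 1.10, adjusted p = 0.000185). Both genes were about as far apart without serum 1, at 1.06 and 1.22. Acadm, the medium-chain dehydrogenase, rose by 0.63. The gene that fell was Fabp5, a cytosolic fatty acid carrier (-1.01). The count of 9 was 4 when wild-type serum-free 1 was left out, 5 when it was wild-type serum-free 2, 4 on the values as deposited and 5 with median scaling.

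Lysosome and autophagy genes rose in part, 30.2% of them against 7.22% of all genes. Of 43 members, 13 rose and none fell (median 0.13; 15 rose without serum 1 and 8 without wild-type serum-free 2). Sqstm1, the p62 cargo receptor of autophagy, read 2725, 2340 and 2324 in serum and 3906 and 3909 without it (log2 0.67, SE 0.08, adjusted p = 0.000350). Map1lc3b, an LC3 protein of the autophagosome membrane, rose by 0.58 and its relatives Gabarap and Gabarapl1 by 0.63 and 0.39. A second probe set of Map1lc3b was at 0.27 and did not pass (adjusted p = 0.275). The proteases cathepsin H (Ctsh) and cathepsin D (Ctsd) rose by 0.68 and 0.49, and the membrane protein Lamp1 by 0.36. The Ctsd call was lost without wild-type serum-free 1 (adjusted p = 0.0508). Ctsb (0.13), Lamp2 (0.16) and the regulator Tfeb (0.11) did not pass.

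Of 22 FOXO targets and insulin signalling genes, 8 rose (36.4%, against 7.22% of all genes) and none fell (median 0.16). Gadd45a, a growth arrest gene also counted with the p53 targets, read 979, 972 and 932 in serum and 1794 and 1717 without it (log2 0.87, SE 0.07, adjusted p = 4.13e-05). Erbb3, a receptor of the EGF receptor family, rose by 0.78 and Ddit4, an inhibitor of mTORC1, by 0.79. A second Erbb3 probe set was at 0.31 and did not pass (adjusted p = 0.365). Members that rose were shared with other lists: Erbb3 with the EGF family, Ddit4 and Trib3 with the integrated stress response, and Ccng2 with growth arrest. Irs2 (0.10), Insr (0.14) and Igf1r (0.04) did not pass. The count of 8 was 4 when wild-type serum-free 2 was left out, 5 when it was wild-type serum-free 1 or wild-type serum 2, and 5 on the values as deposited or with median scaling.

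Of 20 genes of growth arrest and quiescence, 7 rose and none fell (median 0.17), with 4 left without wild-type serum-free 1 or 2. Clu, the secreted chaperone clusterin, read 1972, 1689 and 1801 in serum and 3583 and 4118 without it, a 2.11-fold rise (log2 1.08, SE 0.10, adjusted p = 8.63e-05). Btg1, an antiproliferative gene also counted with the immediate-early genes, rose by 0.70. Gas5, a noncoding RNA named for growth arrest, and Txnip, an inhibitor of thioredoxin, rose by 0.96 and 0.85. A second probe set of Gas5 was at 0.12 and one of Txnip at 0.05, and neither passed. Gas1 (0.11), Gas6 (0.18) and Klf9 (0.25) did not pass. The 7 rises made up 35% of the list, against 7.22% of all genes.

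**Figure D4:**
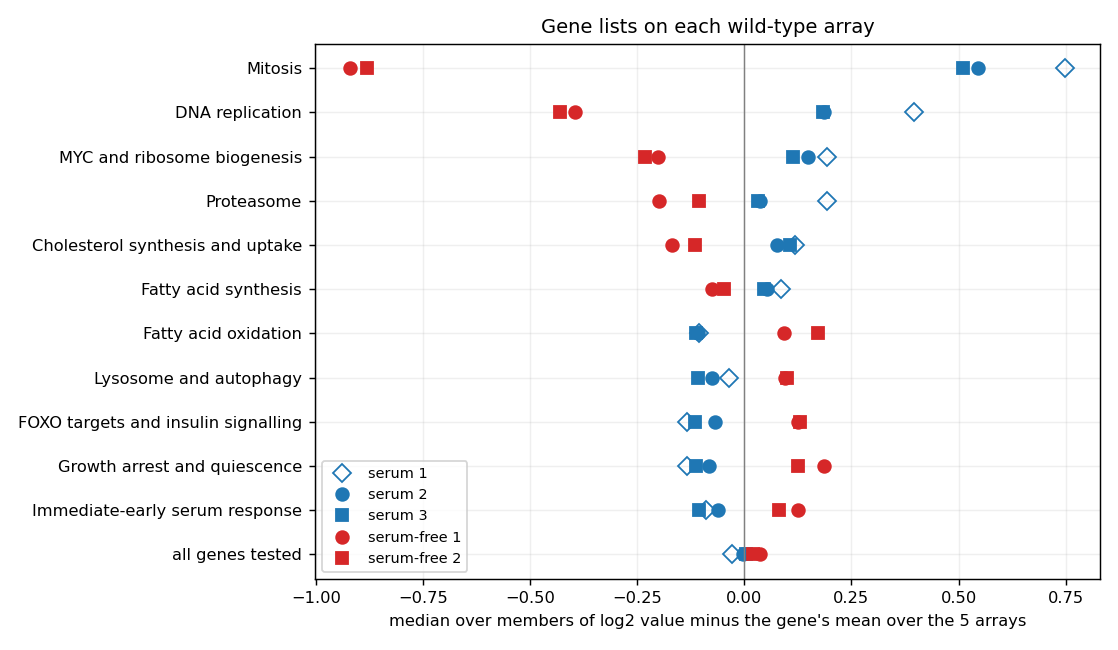
For each list, the median over its members of the log2 value minus that gene's mean over the 5 arrays, 1 symbol per array. In every list shown both red serum-free symbols lie on one side of the 3 blue serum symbols. The open diamond of serum 1 lies farthest from the serum-free arrays in every row but fatty acid oxidation, lysosome and immediate-early genes.

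Immediate-early genes, which serum addition normally induces, rose more often than they fell. Of 31 members, 10 rose (32.3%) and 4 fell (12.9%), against 7.22% and 9.32% of all genes, so the falls were near the share of all genes. The median was 0.16, and without serum 1 the counts were 8 and 4. Fos, a subunit of the AP-1 factor, read 319, 268 and 252 in serum and 1130 and 820 without it. The serum-free arrays differed from each other, and both lay far above all 3 serum arrays (3.46-fold, log2 1.79, SE 0.14, adjusted p = 3.96e-05). Egr1, a zinc-finger factor, rose from 869, 824 and 783 to 2405 and 1980 (2.65-fold, adjusted p = 3.84e-05). Klf10, Klf4 and Junb rose by 0.62, 0.55 and 0.69. Those that fell were Myc (-0.78), Ccn2 (-0.76), Dusp1 (-0.53) and Ccn1 (-0.50), and the Dusp1 call was lost under 8 of the other settings tried. The count of 10 rises was 6 without wild-type serum-free 1 and 5 without wild-type serum-free 2.

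Ccn2 and Ccn1 encode matrix-associated growth regulators that also answer to the cytoskeleton. Ccn2 read 3679, 3753 and 3778 in serum and 2163 and 2263 without it (adjusted p = 5.10e-05). Of 25 cytoskeletal targets of SRF and MRTF, 5 fell and none rose, Actn1 (-0.53), Tpm4 (-0.50), Cnn3 (-0.43), Tagln2 (-0.32) and Tpm1 (-0.24), and 2 fell without wild-type serum-free 1. The Tpm1 call was lost under 7 of 20 other settings, and 2 further Actn1 probe sets, at -0.36 and -0.31, did not pass. Actb stood at 0.45 and did not pass. The falls were 20% of the list against 9.32% of all genes, but the list median was 0.07 (0.004 without serum 1). Over all genes the median was 0.05, so the list as a whole did not move down.

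Genes of amino acid supply and the integrated stress response moved both ways. Of 35 members, 8 rose (22.9%) and 5 fell (14.3%), against 7.22% and 9.32% of all genes (median 0.07). Ddit3, the CHOP transcription factor, read 568, 567 and 587 in serum and 1377 and 1376 without it, a 2.40-fold rise (log2 1.26, SE 0.08, adjusted p = 1.20e-05). Trib3, a pseudokinase induced by CHOP, rose by 0.96, Atf5 by 1.22 and Cebpb by 0.63. The others that rose were Ddit4, Atf4 (0.22), the tRNA synthetase Sars (0.40) and the transporter Slc1a4 (0.30). Those that fell were the transporters Slc1a5 (-0.72, with 1 serum-free array below the floor) and Slc7a5 (-0.51), the serine synthesis gene Psat1 (-0.39) and the tRNA synthetases Mars1 (-0.32) and Gars (-0.26). Asns, the asparagine synthetase often read for this response, did not pass at 0.20. The 8 rises became 5 without wild-type serum-free 1 or 2. The 5 falls became 1 and 2 without those arrays, and 3 without wild-type serum 2, Rb-null serum 1 or Rb-null serum 2.

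Of 31 proteasome subunits, 10 fell (32.3%, against 9.32% of all genes) and none rose (median -0.24). Psmd6 at -0.56 and Psmc2 at -0.51 led the falls. Psmc2 read 2822, 2189 and 2099 in serum and 1582 and 1721 without it. Serum 1 was the highest array, and over all members it lay a median of 0.17 above the other serum arrays. The count of 10 was 10 again without serum 1. It was 0 when wild-type serum-free 1 was left out, 2 when it was wild-type serum-free 2, 6 for wild-type serum 2 and 5 for Rb-null serum 1 or Rb-null serum 2.

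Of the named genes outside the groups above, Fst had one of the largest falls. Fst encodes follistatin, which binds and blocks activin, and read 3208, 2809 and 2633 in serum and 558 and 574 without it (5.08-fold, log2 -2.34, SE 0.09, adjusted p = 1.52e-06). Inhbb, which encodes the activin beta B subunit, rose from 292, 281 and 264 to 505 and 477 (log2 0.82, adjusted p = 0.000195). Mtm1, a lipid phosphatase gene, fell (-2.13) on a probe set with a family suffix, while its second probe set was below the floor on all wild-type arrays.

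The named gains held genes of varied function. Blnk, an adaptor protein best known from B cells, rose on both probe sets, from 491, 439 and 442 to 1454 and 1521 on the first (log2 1.70, SE 0.10, adjusted p = 7.75e-06) and by 1.67 on the second. Grcc10 read 1579, 1339 and 1403 in serum and 4405 and 4573 without it, a 3.12-fold rise (adjusted p = 3.59e-06). Reep6, which encodes a membrane-shaping protein of the endoplasmic reticulum, rose 2.80-fold from 230, 224 and 222 to 655 and 607. Pdcd4, an inhibitor of translation initiation, rose by 1.24 and Stbd1, a glycogen-binding protein, by 1.11. Ackr3, a scavenging receptor for the chemokine CXCL12, read 244, 171 and 160 in serum and 482 and 497 without it. It rose by at least 1.21, since 2 of the serum arrays were below the floor, and its difference ran from 0.55 to 1.38 over the other settings. Ncam1, a neural adhesion molecule, rose by 1.19 on 1 probe set and 0.29 on another, and a further one at 0.07 did not pass.

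Epithelial genes moved in single members. The gap junction gene Gjb2 was below the floor in serum (194, 184 and 192) and read 413 and 376 without it, at least 2.00-fold higher (adjusted p = 2.54e-05). Among 29 junction genes 4 rose and 4 fell (13.8% each, against 7.22% and 9.32% of all genes), with 2 and 2 left without wild-type serum-free 2. Dsp, which encodes desmoplakin of the desmosome, rose by 0.81, while the tight junction gene Cldn1 (-0.81) and the gap junction gene Gja1 (-0.70) fell. Krt20, a keratin of differentiated epithelia, rose from 1194, 1266 and 1245 to 2094 and 2051 (log2 0.75, adjusted p = 0.000287), and Elf3, an epithelial ETS factor, rose by 0.67. Of 16 tested luminal genes 1 rose (6.25%, below the share of all genes), Tmprss2 at 0.72. Of 15 tested basal genes 3 rose (20%) and 2 fell (13.3%), Cd44 (-0.83) and Itga6 (-0.49). The 3 basal rises and the 2 falls all became 0 when either wild-type serum-free array was left out.

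Marker lists of other cell types held few calls. Of 13 tested leukocyte genes 1 rose (7.69%) and of 10 endothelial genes 1 (10%), against 7.22% of all genes. Of 15 mesenchymal genes 1 fell (6.67%) and of 6 smooth muscle genes 1 (16.7%), against 9.32%. The summed level of 17 leukocyte markers was 6274 to 7570 in serum and 7799 to 7833 without it, and that of 12 neuroendocrine markers was 4316 to 4788 and 5338 to 5592. The sums of 9 smooth muscle, 12 endothelial and 20 mesenchymal markers overlapped between the groups. The sum of 16 basal epithelial markers did not overlap either, and 44.2% of all single probe sets tested did not. Single calls were Cd14 (0.26), Eng (0.32), Smtn (-0.49) and Cdh2 (-0.62), of which the Cd14 call was lost under 13 and the Eng call under 11 of 20 other settings. No neuroendocrine list gene passed on the probe set counted, Ncam1 included (0.07). Above the floor on all 5 arrays were 12 of 17 leukocyte markers, Cd68 and Csf1r among them. The same held for 5 of 12 neuroendocrine markers, Chga, Eno2, Insm1, Ncam1 and Uchl1. Ptprc, Lyz2, Tyrobp and Cd8a of the leukocyte list and Chgb, Scg2, Snap25 and Syt1 of the neuroendocrine list lay below the floor on all 5 arrays. The part of other cells in the results was not tested.

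Rb-null cells were taken through the same withdrawal on 4 other arrays. There 1348 probe sets passed (13.9%), 7.5% higher and 6.42% lower, and 785 were called in the same direction in both lines, 51.1% of the wild-type calls and 58.2% of the Rb-null calls, with 9 called in opposite directions. Of the 123 wild-type falls of at least 2-fold, 106 also fell in Rb-null cells (86.2%), and of the 22 rises 20 also rose (90.9%). In Rb-null cells 36 of the 42 mitosis genes fell (median -1.64) and 30 of the 50 replication genes (median -0.42), against 6.64% of all genes. The Rb-null total was 497 to 805 without any one Rb-null array and 2280 without wild-type serum 1.

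The test of the difference between the lines passed for 90 probe sets (0.929%), of which 48 were also wild-type calls. That count was 255 without wild-type serum 1 and 12 to 59 without any one of the other 8 arrays. Fst fell in wild-type (-2.34) and in Rb-null cells (-0.98), and the interaction was -1.36 (adjusted p = 0.00426). Mcm3 fell in both as well (-2.08 and -0.67; interaction -1.42, adjusted p = 0.0312). Fos stood at 1.79 in wild-type and 0.42 in Rb-null cells, where it did not pass and 1 serum array was below the floor (interaction 1.37, adjusted p = 0.0203). Clu was at 1.08 and -0.12 (interaction 1.20, adjusted p = 0.00731), and Igfbp3, which binds insulin-like growth factors in the medium, rose in wild-type cells (0.62) and fell in Rb-null cells (-0.60; interaction 1.22, adjusted p = 0.00631). On a second Igfbp3 probe set the rise in wild-type cells was 0.33, and the Rb-null difference of -0.21 did not pass. Its interaction of 0.54 did not pass either (adjusted p = 0.157). The inducible heat shock genes Hspa1b and Hspa1a rose in wild-type cells (0.98 and 0.69) and fell in Rb-null cells (-1.10 and -0.90). Hspa1b read 849, 650 and 641 in wild-type serum and 1398 and 1400 without it.

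**Figure D5:**
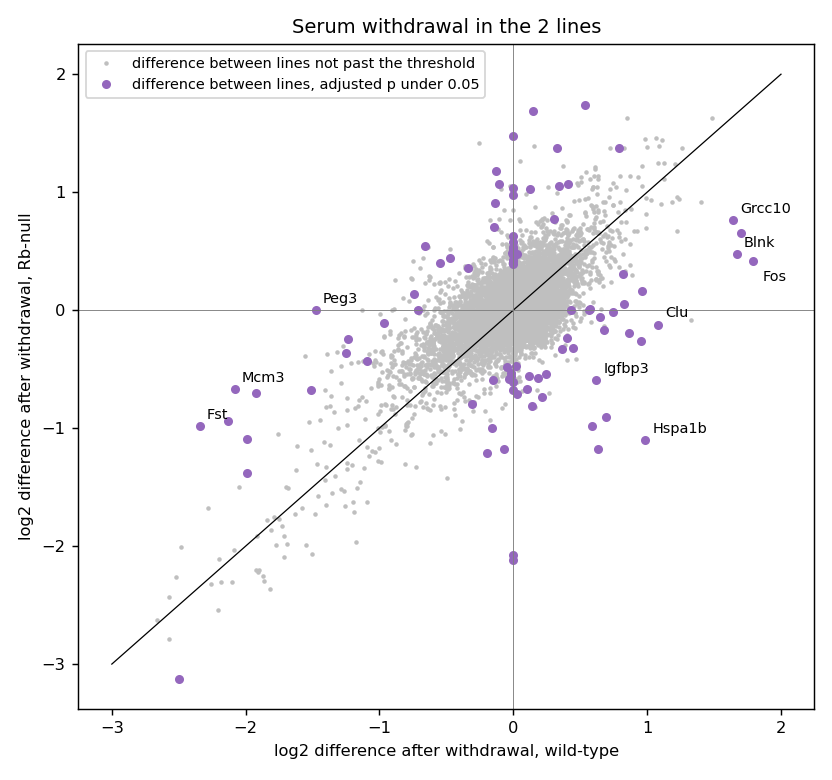
Each point is a tested probe set, with the log2 difference after withdrawal in wild-type cells on the x axis and in Rb-null cells on the y axis. Purple points passed the test of the difference between the lines (90 probe sets), and the line marks equal changes. Most large falls lie along the line, while Fst, Mcm3 and Peg3 lie above it and Fos, Blnk and Hspa1b below it.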

How the data were processed

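The authors deposited linear intensities for 12422 probe sets on each array, from total RNA per the labels. How these were summarised and scaled, and with what software, was not given in the sources used here. Values were quantile normalized between the 9 arrays, raised to a floor at percentile 25 (197) and taken to log2. At least 2 arrays above the floor were required, which left 9686 probe sets. Gene names came from the platform's table, with 10833 probe sets given 1 symbol, 396 several and 1193 none, and no symbol changed on matching gene identifiers to the GRCm38.p6 table. RefSeq promoter windows have that build. One limma 3.58.1 fit (R 4.3.3) of 4 group means over 9 arrays with an intensity trend (5 residual and 4.20 prior degrees of freedom) gave two-sided p-values, Benjamini-Hochberg adjusted over all tested probe sets, with a threshold of 0.05. The procedure was tested on simulated data.

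Genes were represented by the probe set with the highest mean. The 47 gene lists, the members and the tests were chosen with earlier results of these data known. Named were the 15 highest and 15 lowest differences, up to 4 floor genes a direction, up to 5 members a list by adjusted p, 6 interaction genes a direction and Rb1. Other members were named after their values were seen. Alternatives changed the scaling, floor, filter, variance model, arrays used, replicate block and probe set rule.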

Additional observations from a re-analysis of the deposited data

Results flagged for a closer look

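For 30 named probe sets of 27 genes the change after withdrawal differed between the wild-type and the Rb-null line by limma's test of the interaction (adjusted p under 0.05). Values are wild-type minus Rb-null changes on the log2 scale. Genes whose change was lower in wild-type cells were Mgst1 (-1.54), Nupr1 (-1.48), Peg3 (-1.48), Mcm3 (-1.42 and -0.829 on 2 probe sets), Fst (-1.36), Itm2a (-1.31), Mtm1 (-1.19), Mt1 (-1.18), Slc1a5 (-0.716), Hmgb2 (-0.614), Ndrg1 (-0.59) and Il1rn (-0.47). Genes whose change was higher in wild-type cells were Tnc (2.12 and 2.08 on 2 probe sets), Hspa1b (2.08), Sparc (1.81), Hspa1a (1.59), Fos (1.37), Igfbp3 (1.22), Clu (1.20), Blnk (1.20 and 1.05 on 2 probe sets), Grcc10 (0.877), Ctsh (0.845), Pkhd1 (0.803), Krt20 (0.765), Cxcl5 (0.694), Birc5 (0.623) and Sim2 (0.43). Tnc and Nupr1 lay at or below the floor on all 5 wild-type arrays, so their values rest on the Rb-null arrays. Slc1a5, Sim2 and the Peg3 probe set flagged here lay below the floor on all 4 Rb-null arrays, so their values are the wild-type change set against 0. Other Peg3 probe sets, at -0.96 and -0.09, did not pass the interaction test, and the latter read 2169 to 2608 on the Rb-null arrays. A second Igfbp3 probe set, at 0.54, did not pass it either. Mgst1, Sparc, Cxcl5, Il1rn and Pkhd1 lay below the floor on all 3 wild-type serum arrays. Birc5 fell in both lines, to -2.50 in wild-type and -3.12 in Rb-null cells. With 2 or 3 arrays a group, no single gene value was tested as an outlier within its group.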

How the results depend on the processing

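No named wild-type difference that passed reversed under any setting tried, but calls were lost. Of 186 named calls, 31 were lost without a filter and 31 with the 5 wild-type arrays alone. A further 20 were lost without wild-type serum 2 and 18 on the values as deposited, each counted separately. More were lost when either wild-type serum-free array was left out. The counts for mitosis, DNA replication and ribosome biogenesis stayed within 1.5 times. As deposited, the values gave 353 higher calls, 5 FOXO and 4 fatty acid oxidation members; median scaling gave 5 and 5. Without a filter the higher counts were 6 immediate-early, 4 growth arrest and 4 FOXO members, and the lower counts 3 cholesterol and 4 proteasome members. The 5 wild-type arrays alone gave 1004 calls, 380 of them higher, with 4 FOXO members higher and 5 cholesterol and 2 proteasome members lower. The interaction count was 57 with the floor at percentile 10, 59 with no floor and a pseudocount of 32, and 57 without an intensity trend. Deviations of same-numbered wild-type arrays from their group means had correlations of -0.00945 and -0.0831, and those of same-numbered Rb-null arrays -0.231. The deviations of 2 serum-free arrays mirror each other. Each serum array therefore has the same value with the opposite sign for the other array, and the check cannot settle whether arrays were paired. The numbers were taken as names. With a replicate block 1536 probe sets were called, 552 of them higher, and the interaction count was 51. A crossed pairing of the Rb-null arrays, chosen after seeing the data, gave 1149 Rb-null calls against 1255 with the labelled block.

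Leaving out single arrays gave 667 to 1963 wild-type calls (219 to 939 higher, 437 to 1024 lower), 497 to 2280 Rb-null calls and 12 to 255 interaction calls. Members higher ran from 5 to 11 (immediate-early), 4 to 8 (growth arrest), 4 to 8 (FOXO), 4 to 11 (fatty acid oxidation) and 8 to 15 (lysosome). Members lower ran from 2 to 9 (cholesterol), 4 to 8 (fatty acid synthesis) and 0 to 10 (proteasome). A lone serum-free array was assumed to vary like the other groups. Of 343 changed genes with several tested probe sets, 90 changed on all of them and 252 on some. Signals near the floor limit what can be read, since no detection calls came with the values.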

Other observations

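Single genes of energy and redox metabolism changed in wild-type cells. Of 25 genes of glycolysis and the hypoxia response, 4 fell (16%) and 2 rose (8%) without serum, against 9.32% and 7.22% of all genes, so the rises were near the share of all genes. Ldha, the lactate dehydrogenase subunit, read 8272, 8178 and 8024 in serum and 5068 and 5205 without it (log2 -0.67, SE 0.08, limma adjusted p = 0.000374). The glycolytic enzymes Tpi1 and Pgam1 (-0.46 and -0.40) and the hypoxia factor Hif1a (-0.40) were the others that fell. Ndrg1, a stress-responsive gene, rose by 0.79, and P4ha2, a collagen prolyl hydroxylase, by 0.24.

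Of 34 antioxidant and glutathione genes, 5 rose (14.7%) and 2 fell (5.88%), with 9 rises without wild-type serum 1 and 2 without wild-type serum-free 2. Mgst3, a microsomal glutathione transferase, read 1431, 1415 and 1327 in serum and 2274 and 2399 without it (log2 0.75, adjusted p = 0.000600). Gpx4, which reduces lipid peroxides, and Gsr, the glutathione reductase, rose by 0.67 and 0.65. Prdx4, a peroxiredoxin of the endoplasmic reticulum, fell from 2367, 1794 and 1596 to 932 and 972 (log2 -0.99, and -0.83 without serum 1). Over all genes 7.22% rose and 9.32% fell. All 5 metallothionein and zinc genes tested missed the threshold, with differences of -0.15 to 0.14. Of 53 genes of the respiratory chain and ATP synthase, 4 rose (7.55%) and 2 fell (3.77%), so the rises were near and the falls below the shares of all genes. Ndufa6 (0.90) and Cox7a2l (0.75) had the largest rises.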
